A study of Mus musculus with 12 samples.

Results

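The Cyp4 fatty acid hydroxylases were examined in liver RNA-seq of mice with CCl4-induced hepatic fibrosis, as 9 named genes: Cyp4a10, Cyp4a14, Cyp4a12a, Cyp4a12b, Cyp4a31, Cyp4a32, Cyp4f14, Cyp4f15 and Cyp4v3. They were found by symbol in the table of protein-coding transcripts, in which 18 of 29883 transcripts belonged to them, and the values of the transcripts of a gene were summed. This gave 9 of 14188 genes, and every member had values above 0 in all 12 mice.

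CYP4 enzymes are cytochrome P450 proteins of the endoplasmic reticulum that put a hydroxyl group on the last carbon of a fatty acid chain. The product is oxidised to a dicarboxylic acid, which peroxisomes shorten, so in liver this route runs beside the oxidation of fatty acids in mitochondria. The Cyp4a genes act on saturated fatty acids and on arachidonic acid, and Cyp4a10 and Cyp4a14 are classical targets of the nuclear receptor PPARA. The Cyp4f enzymes inactivate leukotriene B4 and related lipids, and Cyp4v3 is the mouse counterpart of human CYP4V2, an enzyme of medium-chain fatty acids whose loss causes a crystalline retinal dystrophy.

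All 12 mice were male, 6 weeks old at the start and killed in week 8. The labels give their strain as C57BL/8, where the methods of the study give C57BL/6J. In both groups CCl4, a solvent that injures hepatocytes, was injected into the peritoneum with corn oil, 2 times per week and at 10 µl/g of the mixture. The 6 mice of the PZH group also received Pien Tze Huang (PZH), a herbal remedy of Chinese medicine, by gavage at a daily dose of 0.25 mg/g, and the 6 mice of the control group received water by gavage. Mice without CCl4 were not analysed here, so each difference below is between CCl4-injured livers with and without PZH. Each library is the liver of 1 mouse, and no batch or date is given in the labels. Values are FPKM, sequenced fragments scaled to the length of the transcript and to the mapped fragments of the library, so levels of different genes are compared per length.

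The members lie in 3 places of the mouse genome (build GRCm38). The 6 Cyp4a genes form a cluster on chromosome 4 from position 115299046 (the start of Cyp4a12a) to 115621602 (the end of Cyp4a32), in the order Cyp4a12a, Cyp4a12b, Cyp4a14, Cyp4a10, Cyp4a31 and Cyp4a32, with only Cyp4a14 on the minus strand. Cyp4f15 (chr17:32685627-32703352, plus strand) and Cyp4f14 (chr17:32905070-32917342, minus strand) lie on chromosome 17, and Cyp4v3 (chr8:45304944-45333216, minus strand) lies alone on chromosome 8. Several members are near copies of each other, which matters for how reads are told apart. The coding sequences of Cyp4a12a and Cyp4a12b were identical at 98.7% of aligned bases. Cyp4a10 was 97.2% identical to Cyp4a32 and 96.6% identical to Cyp4a31, and Cyp4a31 was 96.0% identical to Cyp4a32. Cyp4f14 and Cyp4f15 were 82.9% identical, and Cyp4a14 was at most 80.4% identical to any other member.

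Stretches of 60 coding bases show where near copies differ, since their values rest on reads from such positions. The first 3 come from exon 2 of Cyp4a31 (chr4:115565020-115565079), Cyp4a32 (chr4:115602270-115602329) and Cyp4a10 (chr4:115519640-115519699), all on the plus strand, and capitals mark the 9 positions at which the 3 genes are not all alike.
Cyp4a31: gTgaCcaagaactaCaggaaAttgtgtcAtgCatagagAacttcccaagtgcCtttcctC
Cyp4a32: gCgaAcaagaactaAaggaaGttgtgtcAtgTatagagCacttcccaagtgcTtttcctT
Cyp4a10: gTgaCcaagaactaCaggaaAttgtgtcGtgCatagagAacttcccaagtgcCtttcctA
The Cyp4a12 pair is shown by a stretch of exon 6 of Cyp4a12a (chr4:115326702-115326761) and Cyp4a12b (chr4:115432955-115433014), plus strand, with the 4 differing positions in capitals.
Cyp4a12a: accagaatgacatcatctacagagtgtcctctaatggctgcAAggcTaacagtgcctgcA
Cyp4a12b: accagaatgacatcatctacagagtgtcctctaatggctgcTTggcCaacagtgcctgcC
Along the whole leading transcript, 25.6% of all windows of 150 bases (the read length) in Cyp4a12a and 25.9% in Cyp4a12b occurred unchanged in the other gene of the pair. The share was 7.97% for Cyp4a32, 4.34% for Cyp4a10 and 4.19% for Cyp4a31, shared among these 3 genes, and 4.48% for Cyp4v3, shared with Gm45753. No such window was found for Cyp4a14, Cyp4f14 or Cyp4f15. The values of Cyp4a12a and Cyp4a12b are therefore uncertain as separate values, since a read within a shared stretch cannot be assigned by its own sequence. The reads were paired, and how often the other read of a pair covered a differing position was not tested.

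RefSeq promoter entries (GRCm38.p6) were matched for 4 of the 9 members: Cyp4a32, Cyp4f14, Cyp4f15 and Cyp4v3. Those of Cyp4f14 and Cyp4f15 are shown because these genes moved together below. The windows hold the 190 bases before the first annotated base, the outermost base given to the gene by GENCODE M21 or RefSeq. They are chr17:32917377-32917566 on the minus strand for Cyp4f14 and chr17:32685437-32685626 on the plus strand for Cyp4f15. For Cyp4f14 this base is that of RefSeq, further out than the position 32917342 given above. Capitals mark ATTGG, the CCAAT motif read on the opposite strand.
Cyp4f14: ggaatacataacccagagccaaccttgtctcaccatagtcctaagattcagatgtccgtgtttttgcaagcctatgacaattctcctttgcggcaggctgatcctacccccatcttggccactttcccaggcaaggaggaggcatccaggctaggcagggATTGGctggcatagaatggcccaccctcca
Cyp4f15: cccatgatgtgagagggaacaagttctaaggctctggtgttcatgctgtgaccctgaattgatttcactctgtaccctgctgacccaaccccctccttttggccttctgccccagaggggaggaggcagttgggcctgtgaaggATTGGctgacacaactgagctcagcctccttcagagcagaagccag
The motif lay 30 bases before the first annotated base in Cyp4f14, 46 bases before it in Cyp4f15 and 69 bases before it in Cyp4a32, and it was not in the Cyp4v3 window. The leading transcripts begin further in, at position 32917100 for Cyp4f14-201 and 32685679 for Cyp4f15-201, so the motif lies further from their starts. CCAAT was present on either strand in 28.4% of 32851 promoter windows of this length. Those windows end at a fixed position of each RefSeq promoter entry, where the windows of the members end at the outermost annotated base. The Cyp4a32 window also held TATAAA, which 9.44% of windows held. Searches on both strands for AGGTCA (10.8% of windows), its direct repeat AGGNCANAGGNCA (0.286%) and TTCNNNGAA (5.19%) gave no match in the 4 windows.

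From the smallest steps of the FPKM values the depth was estimated at 26.8 to 42.9 M fragments per mouse, although most low values did not fall on whole steps. On this estimate the fewest fragments behind a member value were about 243, for the 5.60 FPKM of Cyp4a32 in control 5. The lowest FPKM of any member, 4.81 of Cyp4a12b in PZH 5, stands for about 345 fragments of a longer transcript. With PZH, 1798 of 14188 genes were higher and 4560 lower at an adjusted p under 0.05 (limma on log2(FPKM + 1), Benjamini-Hochberg adjustment). Their median log2 difference was -0.11, and dividing each mouse by a median-ratio scale factor moved it to -0.001 and changed the calls to 2807 higher and 2739 lower, so that the share of calls that were higher went from 28.3% to 50.6%. Hepatocyte markers such as Alb were abundant in all mice, and the summed FPKM of 9 listed hepatocyte markers was 43480 to 59850 in PZH mice and 27160 to 40300 in controls, most of it Alb, while by gene 3 of the 9 were higher and 2 (Fgb and Hnf4a, at -1.17 and -0.30) lower. The 9 listed pericentral markers, which belong to the hepatocytes around the central vein that CCl4 injures most, summed to 1484 to 2754 in PZH mice and 636.8 to 1126 in controls, with 5 higher and 0 lower, and the 11 periportal markers to 3097 to 4276 and 2368 to 2910, with 4 higher and 1 lower. Among markers of other cells 3 of 8 macrophage genes were higher and 2 lower, 2 of 9 stellate cell and fibroblast genes were higher and 2 lower, 2 of 9 neutrophil, 2 of 7 endothelial and 1 of 5 cholangiocyte genes were lower, 1 of 5 erythroid genes was higher, and 0 of 9 T and B cell genes passed, also without adjustment. In whole liver, fewer cells of a type and less RNA per cell cannot be told apart, and the part of these markers in the results below was not tested.

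The family did not move as 1 unit. Of the 9 members 6 passed the adjusted threshold, where 44.8% of all genes did. Cyp4f14, Cyp4f15, Cyp4v3 and Cyp4a31 were higher in the PZH group, where 12.7% of all genes were higher, and Cyp4a12a and Cyp4a12b were lower, where 32.1% of all genes were lower. Cyp4a10, Cyp4a14 and Cyp4a32 did not pass. By the criteria of the study, a 2-fold change with an unadjusted P under 0.05, applied here to gene sums, 4 members passed against 4.03% of all genes. Cyp4a31, Cyp4f14 and Cyp4f15 were the higher ones (1.52% of all genes) and Cyp4a12a the lower one (2.52%). The study applied its criteria to single transcripts. By limma no single Cyp4f14 transcript met both, with log2 differences of 0.69 for Cyp4f14-201, 0.86 for Cyp4f14-205 and 1.03 for Cyp4f14-204 (unadjusted P = 0.298). The 2 groups did not overlap in 4 members, against 24.3% of all genes, with Cyp4f14, Cyp4f15 and Cyp4v3 above the controls (6.46% of all genes) and Cyp4a12a below them (17.9%). The median log2 difference of the members was 0.18, beside -0.11 over all genes.

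**Figure D1:**
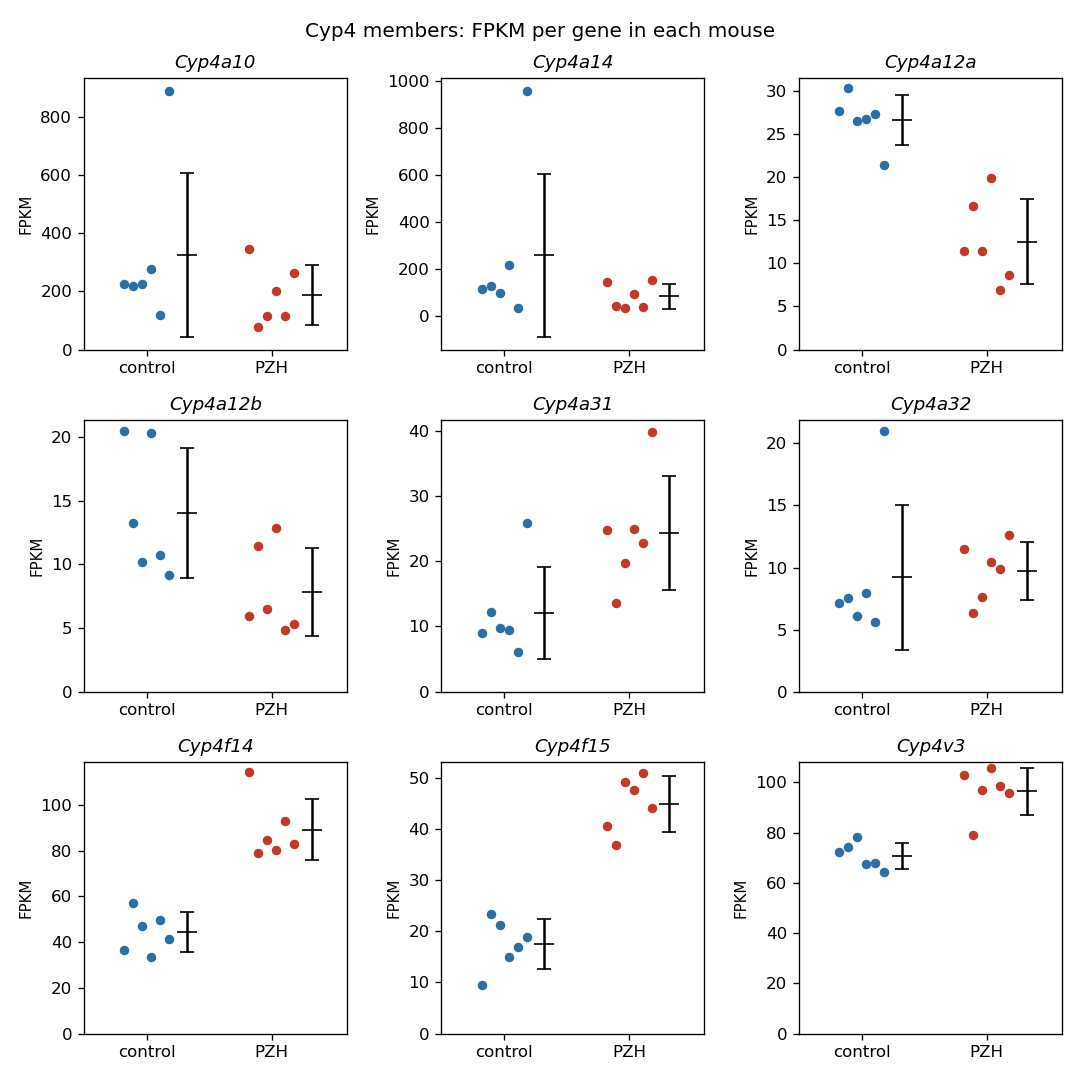
FPKM of each Cyp4 member (1 panel per gene, linear axis) in the 6 control mice (blue) and the 6 PZH mice (red); the black bar is the mean with its SD. In Cyp4f14, Cyp4f15 and Cyp4v3 all red points lie above all blue points, in Cyp4a12a all lie below, and 1 control mouse stands far above the others in Cyp4a10, Cyp4a14 and Cyp4a32.

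Cyp4f14 and Cyp4f15 had the clearest changes. Cyp4f14, a leukotriene B4 hydroxylase, ranged from 79.2 to 114.6 FPKM in PZH mice (median 83.95) and from 33.6 to 57.3 FPKM in controls (median 44.2). The lowest PZH mouse was above the highest control mouse. The means were 89.1 ± 13.4 and 44.3 ± 8.81 FPKM (SD, n = 6 mice per group), a 2.01-fold level. The log2 difference was 1.003 (SE 0.13, 95% CI 0.72 to 1.29), with an adjusted p of 8.83e-05 in limma. Log2 differences are on the log2(FPKM + 1) scale, which understates the change of genes at low FPKM.

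Cyp4f15, a close relative on the same chromosome, had the largest log2 difference among the members. Its FPKM was 36.8 to 50.9 in PZH mice (median 45.9) and 9.55 to 23.3 in controls (median 17.9). All 6 PZH mice were again above all control mice. The means of 44.8 ± 5.43 and 17.5 ± 4.91 FPKM (SD) gave a 2.57-fold level and a log2 difference of 1.35 (SE 0.17, 95% CI 0.98 to 1.73, limma adjusted p = 7.8e-05). Summed over both genes, the Cyp4f level was 116.0 to 155.1 FPKM in PZH mice and 46.3 to 80.6 FPKM in controls.

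Cyp4v3 rose too, by a smaller amount. It was measured at 79.1 to 105.8 FPKM (median 97.7) in PZH mice and at 64.3 to 78.4 FPKM (median 70.1) in controls. The groups did not overlap, although the lowest PZH mouse (PZH 2, 79.1) was close to the highest control mouse (control 3, 78.4). The mean level was 1.36-fold, with a log2 difference of 0.44 (SE 0.08, 95% CI 0.27 to 0.61, limma adjusted p = 0.000615). Its spread within groups was small, an SD of 0.126 on the log2 scale, at the 15.4th percentile of genes with a mean FPKM of at least 1.

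Cyp4a12a and Cyp4a12b, the male-predominant members of the Cyp4a cluster and makers of the arachidonic acid product 20-HETE, were lower in the PZH group. Cyp4a12a was 6.96 to 19.9 FPKM in PZH mice (median 11.4) and 21.5 to 30.3 FPKM in controls (median 27.1). No PZH mouse reached the lowest control mouse. The means of 12.5 ± 4.91 and 26.7 ± 2.89 FPKM (SD) gave a log2 difference of -1.11 (SE 0.20, 95% CI -1.54 to -0.67, limma adjusted p = 0.000732).

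Cyp4a12b was 4.81 to 12.9 FPKM in PZH mice (median 6.23) and 9.16 to 20.5 FPKM in controls (median 12.02). PZH 2 and PZH 4 lay within the control range, so the groups overlapped. The log2 difference was -0.79 (SE 0.26, 95% CI -1.35 to -0.23, limma adjusted p = 0.0255). The call was lost without control 1, control 4, PZH 1, PZH 5 or PZH 6 (adjusted p = 0.05025 to 0.0569) and with a median-ratio scale factor (log2 difference -0.61, adjusted p = 0.0875) or without variance moderation (adjusted p = 0.0508). In both groups Cyp4a12a was above Cyp4a12b, by 0.62 ± 0.14 on the log2 scale in PZH mice and by 0.94 ± 0.43 in controls, and this ratio did not differ between the groups beyond the spread between mice (difference -0.32, two-sided exact permutation test, p = 0.108, adjusted over 6 pairs 0.162).

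**Figure D2:**
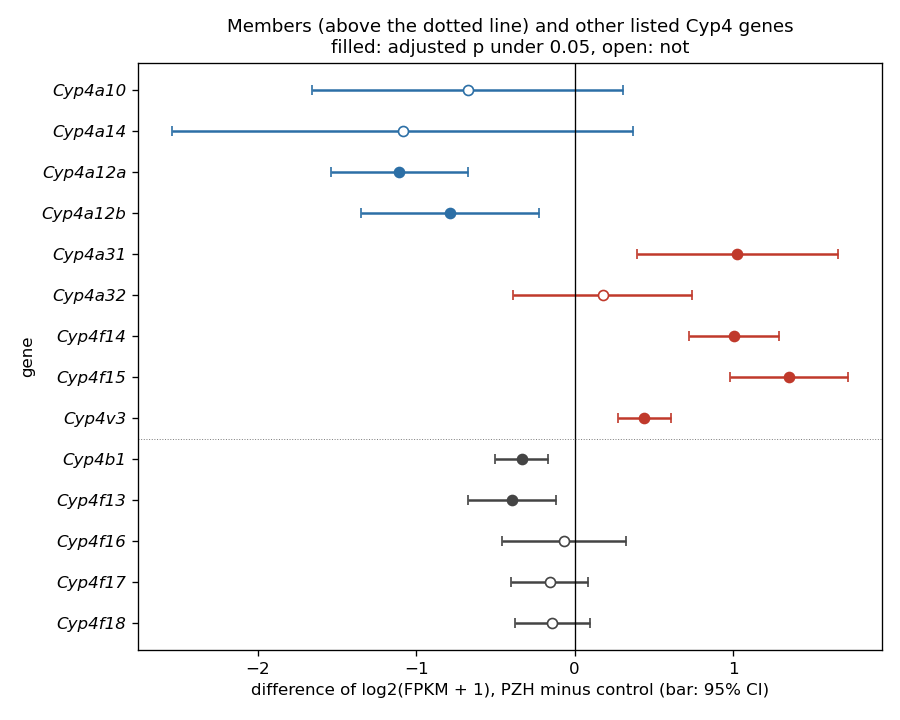
Difference of log2(FPKM + 1) between the PZH and control groups (x axis, bar: 95% CI) for the 9 members and, under the dotted line, the 5 other listed Cyp4 genes; filled points passed an adjusted p of 0.05. The 4 risen members lie between 0.44 and 1.35, the Cyp4a12 pair at -1.11 and -0.79, and the intervals of Cyp4a10 and Cyp4a14 are the widest.

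Cyp4a10 and Cyp4a14, the members known for their strong response to PPARA, were the most variable. Cyp4a10 had the highest mean level of all members in both groups. It ranged from 78.7 to 347.8 FPKM in PZH mice (median 158.0) and from 117.9 to 891.1 FPKM in controls (median 226.4). The ranges overlapped widely, and the log2 difference of -0.68 (SE 0.45, 95% CI -1.66 to 0.31) did not pass the threshold (limma adjusted p = 0.249).

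Cyp4a14 ranged from 31.6 to 150.2 FPKM in PZH mice (median 67.8) and from 33.5 to 958.3 FPKM in controls (median 119.1). Its log2 difference was -1.08, as large as that of Cyp4a12a, but with an SE of 0.67 and a 95% CI from -2.54 to 0.37 (limma adjusted p = 0.212). A fall and no change both lie within this interval. The within-group SD on the log2 scale was 1.32 for Cyp4a14 and 0.889 for Cyp4a10, higher than in 99.7% and 99.0% of genes with a mean FPKM of at least 1.

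Cyp4a31 and Cyp4a32 are near copies of Cyp4a10 at lower levels. Cyp4a31 was 13.6 to 39.9 FPKM in PZH mice (median 23.8) and 6.02 to 25.9 FPKM in controls (median 9.60). Apart from control 6, every control mouse (at most 12.2 FPKM) was below every PZH mouse. The means of 24.3 ± 8.75 and 12.03 ± 7.07 FPKM (SD) gave a 2.02-fold level and a log2 difference of 1.03 (SE 0.29, 95% CI 0.39 to 1.66, limma adjusted p = 0.0127).

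Cyp4a32 was 6.34 to 12.6 FPKM in PZH mice (median 10.2) and 5.60 to 20.98 FPKM in controls (median 7.32). The highest value of the gene was in control 6 and the groups overlapped. The log2 difference was 0.18 (SE 0.26, 95% CI -0.39 to 0.74, limma adjusted p = 0.612). Without control 6 it was 0.43 and passed the threshold (adjusted p = 0.0441).

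Control 6 stood apart in these 4 genes. Its Cyp4a14 level of 958.3 FPKM was 8.23 times the mean of the other 5 controls (116.4 ± 65.4, SD), and its Cyp4a10 level of 891.1 FPKM was 4.18 times theirs (213.4 ± 58.5). The ratio was 3.06 for Cyp4a32 and 2.80 for Cyp4a31. It was lower than the other controls in Cyp4a12a (21.5 FPKM, others at least 26.5) and within or below their range in Cyp4a12b, Cyp4f14, Cyp4f15 and Cyp4v3, so it did not hold more of every member. Among 30 PPARA targets outside the family, control 6 had the highest value of the control group in 21 (70.0%), against 21.7% of all genes. Ehhadh, a peroxisomal oxidation enzyme, was 2.55 times and Acaa1b, a peroxisomal thiolase, 2.66 times the mean of the other controls. This set of values was drawn up after the Cyp4a14 values had been seen. Without control 6 the log2 difference was -0.32 for Cyp4a10 (adjusted p = 0.509), -0.54 for Cyp4a14 (adjusted p = 0.435) and 1.26 for Cyp4a31 (adjusted p = 0.00114), all from limma.

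**Figure D3:**
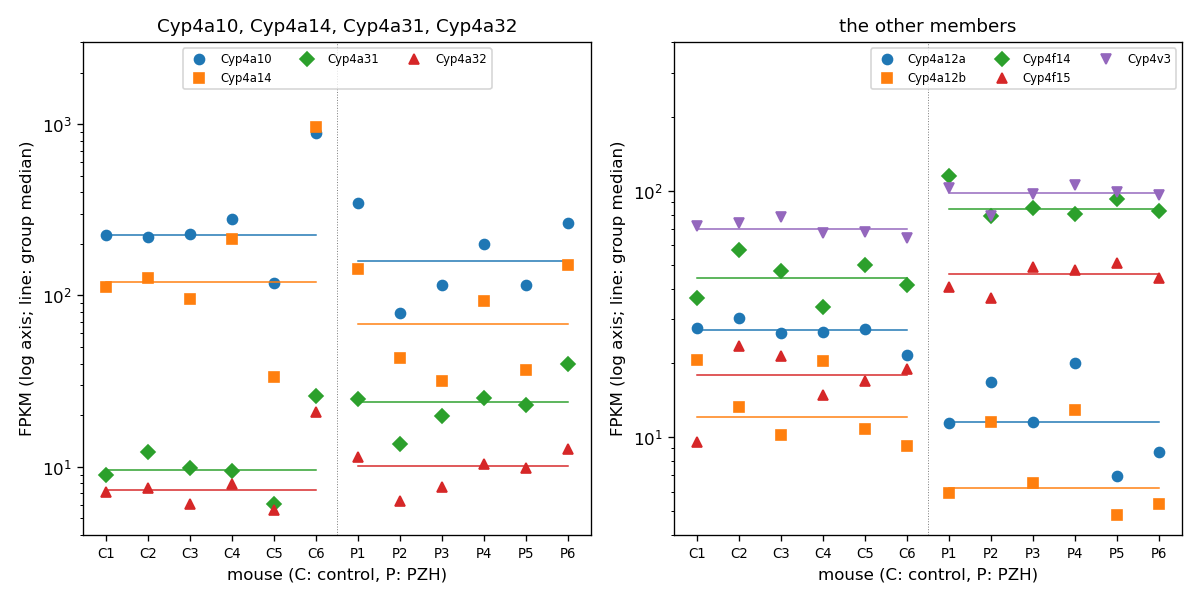
FPKM (log axis) of each member in the 6 control (C1 to C6) and 6 PZH mice (P1 to P6), with each group's median as a line; Cyp4a10, Cyp4a14, Cyp4a31 and Cyp4a32 on the left, the other members on the right. On the left the 4 genes are high together in C6 and low together in C5, and Cyp4a31 draws away from Cyp4a32 in the PZH mice; on the right C6 is not raised.

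The 4 genes also varied together from mouse to mouse. With the group means removed, the correlation of log2(FPKM + 1) over the 12 mice was 0.950 for Cyp4a10 and Cyp4a14 (0.903 without control 6), 0.928 for Cyp4a31 and Cyp4a32, 0.917 for Cyp4a10 and Cyp4a32 and 0.885 for Cyp4a10 and Cyp4a31. It was 0.776 for Cyp4a12a and Cyp4a12b and 0.534 for Cyp4f14 and Cyp4f15. Between Cyp4a10 and the other members of the cluster it was -0.257 for Cyp4a12a and -0.262 for Cyp4a12b. Without control 6 it was 0.87 for Cyp4a31 and Cyp4a32, 0.87 for Cyp4a10 and Cyp4a32 and 0.78 for Cyp4a10 and Cyp4a31. For Cyp4a14 and Cyp4a31 it went from 0.86 to 0.73. The correlations of Cyp4a10 with Cyp4a12a and Cyp4a12b were then -0.11 and -0.04, and that with Cyp4v3 went from 0.15 to 0.60. These values describe 12 libraries that share their depth between genes, and for the near copies they share part of the reads. The total of the 6 Cyp4a genes was 169.9 to 543.1 FPKM in PZH mice (median 279.0) and 201.2 to 1927 FPKM in controls (median 404.9), and it followed Cyp4a10 and Cyp4a14, which made up most of it.

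To compare members within each mouse, the log2 ratios of 6 pairs were tested by two-sided exact permutation tests over all labellings of 6 and 6 mice, whose smallest possible p is 0.0022. The log2 ratio of Cyp4a31 over Cyp4a32 was 1.20 ± 0.21 (SD) in PZH mice and 0.35 ± 0.22 in controls, a difference of 0.85 (p = 0.0022, exact, the smallest possible, adjusted p = 0.0065). Control 6 had both genes high but kept a ratio within its group's spread. The log2 ratio of Cyp4f15 over Cyp4v3 was -1.09 ± 0.14 in PZH mice and -2.01 ± 0.42 in controls, a difference of 0.91 (p = 0.0022, exact, adjusted p = 0.0065). Cyp4f15 thus gained on Cyp4v3, and Cyp4a31 on its copy Cyp4a32.

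The other pairs did not pass. The ratio of Cyp4f14 over Cyp4f15 differed by -0.35 (exact p = 0.0584, adjusted p = 0.117), and without PZH 1 it differed by -0.45 with an adjusted p of 0.0173. The ratio of Cyp4a10 over Cyp4a14 differed by 0.41 (exact p = 0.238, adjusted p = 0.286), and that of Cyp4a14 over Cyp4a12a by 0.02 (exact p = 0.985, adjusted p = 0.985). The last ratio had an SD of 1.10 in PZH mice and 1.71 in controls on the log2 scale, too wide to show whether the fall of Cyp4a12a was shared by Cyp4a14.

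By mean FPKM the order of the members in the PZH group was Cyp4a10, Cyp4v3, Cyp4f14, Cyp4a14, Cyp4f15, Cyp4a31, Cyp4a12a, Cyp4a32 and Cyp4a12b, and the ranges of every 2 neighbours overlapped. In the control group it was Cyp4a10, Cyp4a14, Cyp4v3, Cyp4f14, Cyp4a12a, Cyp4f15, Cyp4a12b, Cyp4a31 and Cyp4a32. There Cyp4v3 did not overlap with Cyp4f14, nor Cyp4f14 with Cyp4a12a, and the ranges of all other neighbours overlapped. Cyp4a12a thus stood above Cyp4f15 and Cyp4a31 by its mean in the control group and below both in the PZH group. Over all mice the members were well-expressed genes, from the 71.5th percentile of all genes by mean FPKM for Cyp4a32 to the 98.9th for Cyp4a10.

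Among the other Cyp4 genes no rise passed the threshold. Of 11 that were looked for, 5 were listed, and with PZH 0 were higher and 2 lower by limma, with the same counts at an unadjusted P under 0.05, where 12.7% of all genes were higher and 32.1% lower. Cyp4b1, a hydroxylase mostly known from lung, was 5.03 to 7.09 FPKM in PZH mice and 6.68 to 8.26 FPKM in controls, a log2 difference of -0.33 (limma adjusted p = 0.00373). Cyp4f13, which lies in the Cyp4f group, was 4.40 to 8.31 and 8.36 to 10.9 FPKM without overlap, a log2 difference of -0.39 (limma adjusted p = 0.0234). Neither passed with a median-ratio scale factor (-0.17 and -0.22, adjusted p = 0.0798 and 0.135), and Cyp4f13 did not pass without control 6 (adjusted p = 0.0528). Cyp4f16, Cyp4f17 and Cyp4f18 had means of 2.06 to 3.73 FPKM in PZH mice and 2.21 to 4.29 in controls, and did not pass (adjusted p = 0.277 to 0.789).

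At the level of single transcripts 6 of the 18 passed the adjusted threshold, 5 higher and 1 lower, where 19.7% of all protein-coding transcripts passed, 5.73% higher and 14.0% lower. They were Cyp4f15-201, Cyp4f14-201, Cyp4f14-205, Cyp4v3-201 and Cyp4a31-201 among the higher and Cyp4a12a-201 as the lower. Cyp4f15-201 carried the change of its gene, with 43.8 ± 5.13 FPKM in PZH mice and 16.75 ± 4.96 in controls (log2 difference 1.39, limma adjusted p = 0.000499), while Cyp4f15-204 was at 1.02 ± 1.04 and 0.710 ± 0.667 FPKM (adjusted p = 0.689). In Cyp4a31 the transcript with the larger log2 difference was the minor one. Cyp4a31-201 was 4.69 ± 2.01 and 1.23 ± 0.905 FPKM (log2 difference 1.38, limma adjusted p = 0.00473), and the leading Cyp4a31-202 was 13.3 ± 3.91 and 9.17 ± 5.96 FPKM (0.59, adjusted p = 0.204). Cyp4a31-203, a short form of 8 exons, was listed at 0 in 3 PZH and 4 control mice and reached 17.7 FPKM in PZH 6.

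Cyp4f14 held a transcript found in 1 mouse. Cyp4f14-204, with 13 exons, was at 69.97 FPKM in PZH 1 and listed at 0 in the other 11 mice, and in the same mouse the leading Cyp4f14-201 was at 32.2 FPKM, beside 68.5 to 76.4 FPKM in the other PZH mice. PZH 1 also had the highest gene total of its group, 114.6 FPKM. The gene total without this mouse remained higher in the PZH group, with the lowest and highest log2 difference over all single omissions at 0.93 and 1.08.

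The share of a gene's FPKM in its leading transcript was tested for the 4 members with several transcripts. For Cyp4a31 it was 57.0% ± 14.4 (SD) in PZH mice and 75.7% ± 10.1 in controls (exact permutation p = 0.026, adjusted over 4 genes 0.0779). For Cyp4f14 it was 76.1% ± 23.6 and 88.4% ± 2.02 (exact permutation p = 0.039, adjusted 0.0779), and PZH 1 alone had 28.1%. Neither passed after adjustment. The Cyp4a31 difference passed without PZH 4 (-20.95 percentage points, adjusted p = 0.0390) and without control 2 (-22.5, adjusted p = 0.0260), and the Cyp4f14 difference without PZH 4 (-14.9, adjusted p = 0.0173). Other omissions made them smaller. Over all single omissions the Cyp4f14 difference shrank to as little as -2.73 points, with an adjusted exact p of up to 0.416. That of Cyp4a31 shrank to -14.4 points, with an adjusted exact p of up to 0.225. For Cyp4a10 (62.9% and 60.4%) and Cyp4f15 (97.8% and 95.4%) the adjusted p was 0.366 and 0.292.

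**Figure D4:**
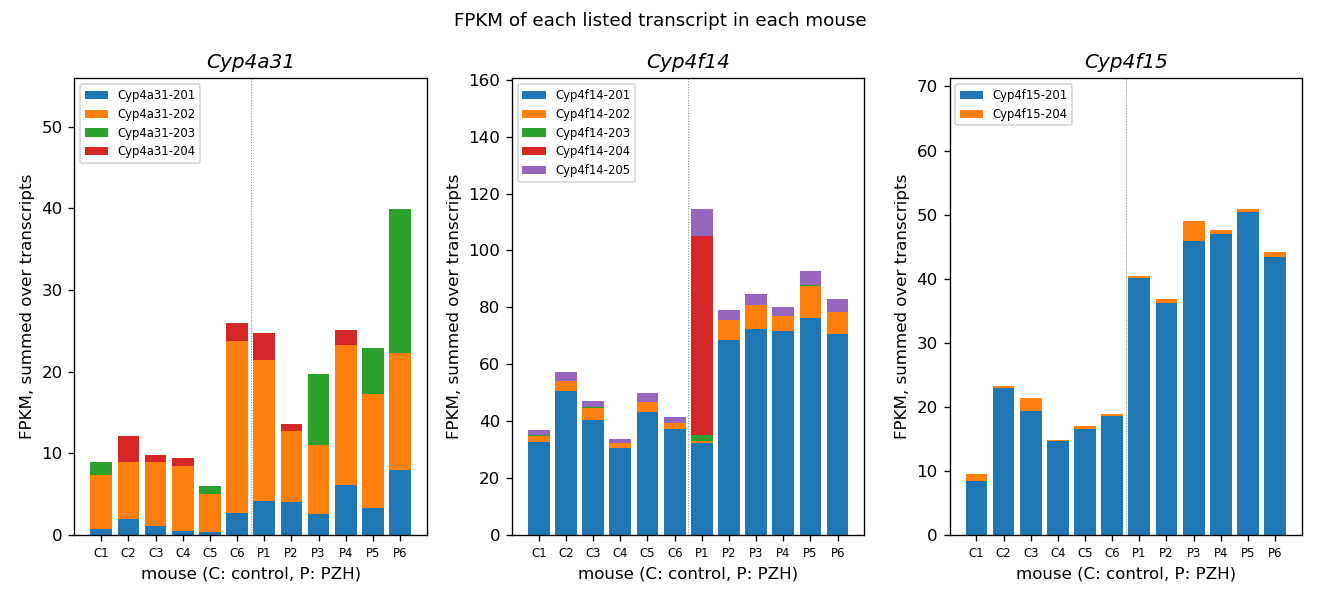
FPKM of each listed transcript (colours) stacked to the gene total in the 6 control (C) and 6 PZH mice (P) for Cyp4a31, Cyp4f14 and Cyp4f15. The Cyp4f14-204 block of 69.97 FPKM appears in P1 alone, and Cyp4a31-203 adds to P3, P5 and P6.

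The only listed lncRNA within 100 kb of a member was Gm17115, near Cyp4f15 on chromosome 17. It was at 0.160 ± 0.121 FPKM in PZH mice and 0.0613 ± 0.0495 in controls (log2 difference 0.12, limma adjusted p = 0.210), where 20.6% of lncRNA transcripts passed.

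Transcripts of the proteins that pass electrons to P450 enzymes were higher as well, and all 4 of them passed, where 12.7% of all genes were higher and 32.1% lower. Por, the reductase that feeds electrons to every microsomal P450, was 122.1 ± 28.4 FPKM in PZH mice and 70.0 ± 12.8 in controls (log2 difference 0.77, limma adjusted p = 0.00269). Cyb5a, the cytochrome b5 that assists some P450 reactions, was 253.2 ± 45.9 and 178.0 ± 21.6 FPKM (0.50, adjusted p = 0.00409). Alcohol and aldehyde dehydrogenases are the enzyme classes that oxidise omega-hydroxy fatty acids and their aldehydes. Of 8 listed genes of these classes 6 rose and 0 fell (7 and 0 at an unadjusted P under 0.05). The list median was 0.66 beside -0.11 for all genes, and whether each of the 8 acts on these acids was not tested. Adh4 rose from 55.1 ± 17.1 to 151.0 ± 13.5 FPKM (1.49, adjusted p = 4.44e-05), Adh1 from 609.4 ± 126.4 to 1060 ± 120.8 FPKM (0.82, adjusted p = 0.000543), and Aldh3a2, the fatty aldehyde dehydrogenase, from 40.3 ± 11.1 to 68.6 ± 17.0 FPKM (0.76, adjusted p = 0.00717).

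Among 14 genes listed around the shortening of dicarboxylic acids in peroxisomes, 6 rose and 0 fell, also at an unadjusted P under 0.05. Where in the cell each of them acts was not tested. At the adjusted threshold 12.7% of all genes were higher and 32.1% lower. The list median was 0.24, and 7 of the 14 also belong to another list. Acsl1, which activates long-chain fatty acids, was 101.7 ± 25.2 FPKM in PZH mice and 41.4 ± 8.38 in controls (1.27, limma adjusted p = 8.64e-05). Abcd3, a transporter into the peroxisome that accepts dicarboxylic acids, was 110.8 ± 19.9 and 53.3 ± 7.77 FPKM (1.04, adjusted p = 6.72e-05). Ehhadh was 84.2 ± 9.17 and 108.8 ± 63.3 FPKM and did not pass (limma adjusted p = 0.596).

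Ppara itself, the receptor behind the regulation of Cyp4a10 and Cyp4a14, was 44.0 ± 4.33 FPKM in PZH mice and 23.4 ± 6.03 in controls without overlap (log2 difference 0.92, limma adjusted p = 0.000535). Among the 9 receptors and coregulators 2 rose and 2 fell, beside 12.7% of all genes higher and 32.1% lower. Ppargc1a rose by 0.39 (adjusted p = 0.0296), a call lost without any 1 of control 1, 2, 3 or 6 or of PZH 3, 4 or 6 (adjusted p = 0.05003 to 0.0673). Pparg fell by 0.78 (adjusted p = 0.0154) and Rxrb fell by 0.34 (adjusted p = 0.0195), the latter not with a median-ratio scale factor (-0.17, adjusted p = 0.159). The 30 PPARA targets did not move one way, with 12 higher, 5 lower and 13 that did not pass, beside the same shares of all genes. Their median was 0.14, and 9 of the 30 also belong to another list. The number higher was 6 without control 1, control 5 or PZH 6 and 7 without PZH 5.

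Within that list Acsl1 and Acot3 had the largest rises. Acot3, a peroxisomal thioesterase, was 3.61 ± 2.02 FPKM in PZH mice and 1.01 ± 0.313 in controls (1.11, limma adjusted p = 0.00135). Falls were largest for Plin2, a lipid droplet coat protein, at 115.9 ± 7.92 and 476.6 ± 127.6 FPKM (-1.99, adjusted p = 7.17e-06), and Fgf21, a fasting hormone of the liver, at 2.70 ± 1.78 and 10.8 ± 5.19 FPKM (-1.66, adjusted p = 0.00225).

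The Cyp4a12 genes depend on the male pattern of growth hormone, and 1 of 10 genes of that axis was higher and 2 were lower, beside 12.7% and 32.1% of all genes. Ghr, the receptor, was 128.8 ± 13.4 FPKM in PZH mice and 68.0 ± 15.3 in controls (0.93, limma adjusted p = 0.000156). Jak2, its kinase, was 6.28 ± 0.592 and 9.07 ± 1.14 FPKM (-0.46, adjusted p = 0.000684), and Hnf4a, a hepatocyte regulator, fell by 0.30 (adjusted p = 0.00937), not with a median-ratio scale factor (-0.11, adjusted p = 0.2496). Stat5a, Stat5b, Igf1, Igfals, Socs2, Cish and Bcl6 did not pass.

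Of 18 other male-biased liver genes 8 were higher, 1 was lower and 9 did not pass, with a median of 0.34. Among all genes 12.7% were higher and 32.1% lower, here and for the female-biased genes below. Keg1 was 40.0 ± 17.2 FPKM in PZH mice and 3.49 ± 1.47 in controls (3.05, limma adjusted p = 9.99e-05), and Nudt7, a peroxisomal coenzyme A hydrolase, was 69.2 ± 12.8 and 16.3 ± 5.36 FPKM (2.05, adjusted p = 1.43e-05). C8a, a complement component, was the lower one, at 129.4 ± 25.9 and 204.2 ± 37.7 FPKM (-0.66, adjusted p = 0.00402), not with a median-ratio scale factor (adjusted p = 0.053). Of 16 female-biased genes 10 were listed, 4 higher and 0 lower by limma, also without adjustment, Acot3 among them and Cyp3a44 at 0.514 ± 0.241 and 0.225 ± 0.0784 FPKM (0.29, adjusted p = 0.0353). The Cyp3a44 call was lost without control 1, 3 or 5 or PZH 1, 4, 5 or 6 (adjusted p = 0.0544 to 0.0800). The count of 4 was 1 or 2 without control 1, 3, 4 or 5 or PZH 1 or 6, and 1 of 6 with a minimum mean FPKM of 1.

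Among 15 genes of eicosanoid synthesis, breakdown and receptors, 12 were listed. By limma 3 of them were higher and 3 lower, beside 12.7% higher and 32.1% lower among all genes. With a median-ratio scale factor 1 of the 12 was lower. Alox5ap, which helps start leukotriene synthesis, was 4.24 ± 1.16 FPKM in PZH mice and 6.17 ± 1.27 in controls (-0.46, limma adjusted p = 0.0275). The Alox5ap call was lost with a median-ratio scale factor (-0.30, adjusted p = 0.143) and without control 4, control 5, control 6, PZH 2 or PZH 4 (adjusted p = 0.0517 to 0.0632). Ptgs2, the inducible cyclooxygenase, was 0.0270 ± 0.0104 and 0.327 ± 0.214 FPKM (-0.36, adjusted p = 0.00599). Ptgr1, which inactivates prostaglandins and leukotriene B4, was 1.98 ± 0.407 and 0.949 ± 0.237 FPKM (0.61, adjusted p = 0.000499). Ephx2, the soluble epoxide hydrolase, was 146.9 ± 27.1 and 103.6 ± 27.4 FPKM (0.52, adjusted p = 0.0281), and lost the call without control 1, control 5, PZH 4 or PZH 6 (adjusted p = 0.0561 to 0.0628) and without variance moderation (adjusted p = 0.0516).

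**Figure D5:**
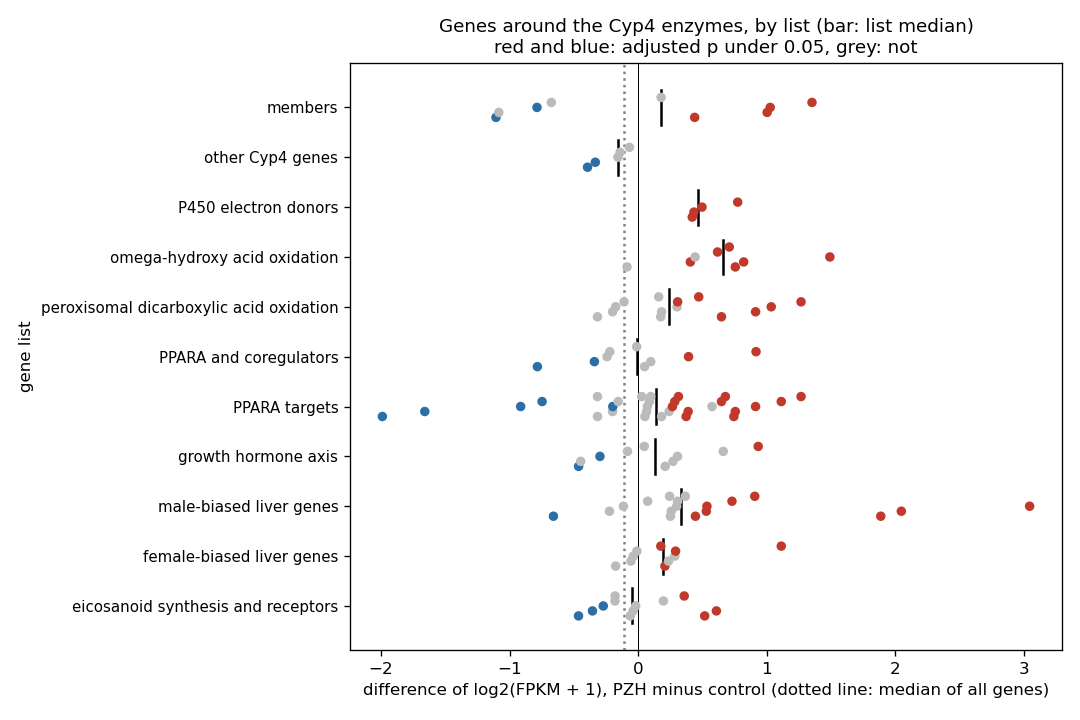
Difference of log2(FPKM + 1) between the PZH and control groups (x axis) for every listed gene of the 11 lists, with each list's median as a bar and the median of all genes as a dotted line; red and blue points passed an adjusted p of 0.05, grey ones did not. The electron donors and the list named omega-hydroxy acid oxidation lie to the right with medians of 0.47 and 0.66, and the Cyp4 members spread from -1.11 to 1.35.

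Each member had genes with a similar course over the mice. Likeness was the correlation of log2(FPKM + 1) over 12 mice with group means removed, among 10939 genes outside these 9 with a mean FPKM of at least 1. Among the 2 most alike were Pam16 (0.906) and Hsd17b10 (0.894) for Cyp4a10, Pam16 (0.882) and Ehhadh (0.879) for Cyp4a14, and Pam16 (0.932) and Retsat (0.924) for Cyp4a32. Pam16, a part of the mitochondrial protein import motor, therefore headed the list of 3 members. Acad11 (0.944) and Ahcy (0.932) were the most alike for Cyp4a31, Ttc39c (0.969) and Gprin3 (0.967) for Cyp4f15, and for Cyp4f14 Pcmtd2 (0.909) is named. For Cyp4v3 they were Nme4 (0.886) and Slc46a3 (0.866), for Cyp4a12a Srek1 (0.879) and Cpsf1 (0.872), and for Cyp4a12b Nfrkb (0.856) and Dnm1l (0.837). None of the genes named for Cyp4a10, Cyp4a14, Cyp4a31 and Cyp4a32 was named for the other 5 members. With at most 2 of 10939 genes named per member, this cannot show whether the members differ. The values given are the highest of many correlations over 12 points, and the points share their library.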

How the data were processed

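The authors made strand-specific libraries from the liver RNA of 12 mice, sequenced paired reads of 150 bases, and ran HISAT2 2.1.0 (GRCm38) and StringTie 1.3.5 (Ensembl release 95) on them. The authors deposited FPKM values per transcript in 2 tables, for protein-coding and lncRNA transcripts, already divided by length and library size. Every sample column was used. Of the low FPKM values 13.9% to 25.9% per mouse fell on whole multiples of 1 fragment (within 0.02), so counts were not recovered and the precision is that of the spread between mice.

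FPKM values were summed per gene by the GENCODE M21 assignment and compared as log2(FPKM + 1), without a further filter, with limma 3.58.1 in R 4.3.3 over all genes, with Benjamini-Hochberg adjustment. The lowest FPKM sum over the 12 mice of any protein-coding transcript in the deposited table was 1.00. Transcripts below this were absent from the gene sums and from the shares of all genes. The procedure was tested on simulated data. Single ratios and shares were compared by two-sided exact permutation tests. Sequences and figures used Python 3.11.15, biopython 1.88 and matplotlib 3.10.9, and promoter windows came from RefSeq. The members, gene lists and tests were chosen with earlier results of these data known. From each pathway list at most 2 rises and 2 falls past the adjusted threshold, those with the largest log2 difference, are named. Aldh3a2 and Ehhadh were added after their values were seen, and the values of some genes are not reported here. The lists were the Cyp4 genes, P450 electron donors, omega-hydroxy acid oxidation, peroxisomal dicarboxylic acid oxidation, PPARA and its coregulators, PPARA targets, the growth hormone axis, male- and female-biased liver genes, eicosanoid genes and cell markers. The alternatives were a median-ratio scale factor, an equal FPKM sum, a pseudocount of 0.1, a minimum mean FPKM of 1, no variance moderation, a mean-variance trend, a replicate block, and leaving out single mice.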

Additional observations from a re-analysis of the deposited data

Results flagged for a closer look

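In 38 sets of 6 mice (each member's level, the share of its leading transcript and the 6 ratios of pairs, per group), 5 had 1 mouse whose gap to the nearest other mouse took up an unusually large part of the group's range, and chance alone gives about 1 such set in 20. Control 6 had 20.98 FPKM of Cyp4a32, with the other controls at 5.60 to 7.93. PZH 2 had 79.06 FPKM of Cyp4v3, the lowest of its group and still above all controls. The leading transcript of Cyp4f14 held 28.06% of the gene in PZH 1, where Cyp4f14-204 was at 69.97 FPKM. The leading transcript of Cyp4a31 held 56.46% in control 2, and that of Cyp4f15 held 93.66% in PZH 3.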

How the results depend on the processing

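With 7 other settings and each of the 12 mice left out, 5 to 7 members passed the adjusted threshold, Cyp4f14, Cyp4f15, Cyp4v3, Cyp4a31 and Cyp4a12a among them each time. The number past 2-fold was 2 with an equal FPKM sum and 2 to 4 over the omissions (2 without control 1, control 4 or PZH 5), since 3 members lie near 2-fold. It was 5 with the replicate block. With a median-ratio scale factor it was 3, all higher, as the log2 difference of Cyp4a12a was then -0.92. Transcripts that passed were 5 to 7. Pathway genes higher were 41 of 110, and 28 to 41 over the omissions, and those lower were 15, 7 with a median-ratio scale factor and 12 to 16 over the omissions. Among all genes 12.7% were higher and 32.1% lower, and 19.8% and 19.3% with that scale factor. Cyp4f16, which passed in no setting, went from -0.068 to 0.059 with a median-ratio scale factor and ran from -0.17 to 0.071 over the omissions, above 0 without control 4 (0.033) and without PZH 4. The ratio of Cyp4a14 over Cyp4a12a ran from -0.40 to 0.62 over the omissions and changed sign in 6 of them. Over the omissions the other ratios ran from 0.22 to 0.60 (Cyp4a10 over Cyp4a14), -0.43 to -0.25 (Cyp4a12a over Cyp4a12b), 0.77 to 0.90 (Cyp4a31 over Cyp4a32), -0.45 to -0.25 (Cyp4f14 over Cyp4f15) and 0.76 to 0.99 (Cyp4f15 over Cyp4v3), and the leading shares by -22.5 to -14.4 points (Cyp4a31) and -14.9 to -2.73 points (Cyp4f14).

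The numbers of the mice do not pair them: same-numbered mice had correlations of -0.0784 to 0.0929 between their deviations, and 0 of 6 PZH mice matched its own number best. With the replicate block 7 members passed, Cyp4a14 being added (log2 difference -1.08, adjusted p = 0.04815), while Cyp4f13 did not (adjusted p = 0.06985), the count of higher female-biased genes went from 4 to 2 and that of the growth hormone axis from 1 to 2. The ratios of Cyp4a31 over Cyp4a32 (0.85) and Cyp4f15 over Cyp4v3 (0.91) kept their size and had an adjusted p of 0.0625, as a paired exact test of 6 pairs cannot go below 0.0312. The estimated depth of at least 26.8 M fragments would put every member value at 243 fragments or more, but counts were not recovered, and the errors given are those of the spread between the 6 mice per group. For the Cyp4a12 pair and the copies of Cyp4a10, how the authors' counting divided shared reads was not tested.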
